A study of Mus musculus with 6 samples.

Results

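The 10 genes described here encode secreted or surface proteins of the extracellular matrix, and were taken by name as Aspn, Dpt, Postn, Dcn, Lum, Bgn, Ogn, Tnn, Tnc and Lrrc15 from a table of 25239 genes. They were chosen by their counts in organoids treated with a MEK and a PI3K inhibitor, so their values in the comparisons with those organoids are a description and carry no test. The libraries without inhibitors are part of those comparisons, so p values among them are not independent of the choice either. All 10 had counts in every library, and all 10 were among the 15256 genes that passed the filter on low counts. Aspn passed the count minimum, set from the depth of all libraries, in 2 of the 4 libraries without inhibitors, and the other 9 genes did so in 4 of 4. With cAMP and 4OHT taken alone, Aspn did not pass the filter. Aspn, Dcn, Lum, Bgn and Ogn belong to the small leucine-rich proteoglycan (SLRP) family, and Postn, Tnc and Tnn are matricellular genes. Dpt and Lrrc15 fit neither name strictly, since dermatopontin is a matrix protein that binds decorin and Lrrc15 is a membrane protein with leucine-rich repeats.

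The libraries came from thyroid organoids grown from 1 mouse embryonic stem cell line, G4 RosaLuc modified with TRE-Nkx2-1-Pax8 and with bTg-NES-BrafV637E-ERT2, and the study asked how an activated Braf oncogene and its inhibitors alter thyroid differentiation. In all groups 5 days of doxycycline (1 µg/ml) had switched on Nkx2-1 and Pax8, 8-Br-cAMP was given for 2 weeks, follicles were enriched and embedded again in Matrigel, and RNA was collected at day 31. The bovine thyroglobulin promoter drives the BrafV637E-ERT2 fusion in thyroid cells, and 4-hydroxytamoxifen (4OHT) activates it; V637E is the mouse counterpart of the human V600E change. All groups stayed in cAMP. Organoids with cAMP and the ethanol vehicle formed the control (cAMP), and organoids with cAMP and 1 µM 4OHT for 5 days formed the 4OHT group. Organoids with cAMP and 4OHT plus the MEK inhibitor PD0325901 (250 nM) and the PI3K inhibitor LY204002 (5 µM) for the last 3 days formed the PD+LY group. Each group holds 2 libraries, each from pooled wells. Since the methods describe a run of 4OHT alone before the inhibitors, the length of 4OHT treatment may also differ between the PD+LY and 4OHT groups. Enrichment for follicles does not remove all other cells, the stem cells had been kept on mouse embryonic fibroblasts, and the fusion is expressed from a thyroid promoter, so the cell type that made each transcript is not known from these data.

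SLRPs are small secreted proteins whose leucine-rich repeats bind collagen. Decorin and biglycan carry chondroitin or dermatan sulphate chains, lumican and osteoglycin can carry keratan sulphate, and asporin has no typical chain; they set fibril width and spacing and bind growth factors such as TGF-beta. Matricellular proteins such as tenascins and periostin do not build the matrix scaffold but bind integrins and other receptors, and are made mostly by fibroblasts and other mesenchymal cells during development, repair and around tumours.

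The libraries held 14898409 to 20637959 counts, and replicates of a group had a common biological coefficient of variation of 0.105. Braf had 926 to 1754 counts per library, which do not separate the fusion from the endogenous gene. All 8 thyroid markers were detected in every library, with summed levels of 1103 to 1647 CPM (counts divided by library size after TMM scaling) in cAMP, 570 to 760 in 4OHT and 985 to 1974 in PD+LY. All 12 fibroblast markers were detected as well, with summed levels of 1278 to 1415 CPM in cAMP, 2312 to 2460 in 4OHT and 3995 to 4616 in PD+LY. Col1a1, Col1a2 and Col3a1 made up 4264 and 3714 CPM of this sum in PD+LY, and the other 9 markers summed to 382 and 398 CPM in cAMP, 390 and 445 in 4OHT, and 352 and 280 in PD+LY. The PD+LY libraries stood apart from each other for the genes described here: all 10 were higher in replicate 1 than in replicate 2, against 48.4% of all tested genes, so values are also given without replicate 1. Each group has 2 libraries of pooled wells, so p-values measure only the spread between these libraries.

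In the mouse genome (GRCm38, GENCODE M21) the SLRP genes lie in clusters. Aspn (chr13:49544443-49567565, plus strand) and Ogn (chr13:49608046-49624501, plus strand) are separated by 40480 bp that hold Omd, and both lie inside the span of Cenpp on the opposite strand. Aspn shares 7 exon bases with Cenpp and Ogn shares 0. Dcn (chr10:97479609-97518143, plus strand) and Lum (chr10:97565128-97572703, plus strand) are separated by 46984 bp, and Bgn is at chrX:73483602-73495933 on the plus strand. Dpt (chr1:164796644-164824266) and Postn (chr3:54361109-54391037) are on the plus strand, and Tnn (chr1:160085029-160153580), Tnc (chr4:63959785-64047015) and Lrrc15 (chr16:30269302-30283256) on the minus strand. Tnc shares 176 exon bases, 2.26% of its exon length, with the opposite-strand transcript 8030451A03Rik, and reads were counted without regard to strand.

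The 250 bases upstream of the RefSeq start (GRCm38.p6) were read for 8 of the 10 genes, all but Dcn and Lum, and searched on both strands for short motifs. Shown are the genes with the highest fitted fold in PD+LY versus 4OHT (Aspn and Dpt), a matricellular gene (Postn, the downstream of its 2 starts) and Bgn, whose level was lower under the inhibitors than in 4OHT, with TATA boxes (TATAAA) and E-boxes (CANNTG) in capitals. The windows are chr13:49544193-49544442 for Aspn, chr1:164796413-164796662 for Dpt, chr3:54360857-54361106 for Postn and chrX:73483351-73483600 for Bgn, all on the plus strand.
Aspn: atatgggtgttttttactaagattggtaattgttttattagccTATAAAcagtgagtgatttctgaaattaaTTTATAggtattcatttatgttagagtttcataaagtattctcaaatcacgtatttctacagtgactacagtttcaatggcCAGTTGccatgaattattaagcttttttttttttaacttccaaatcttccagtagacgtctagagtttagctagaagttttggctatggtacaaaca
Dpt: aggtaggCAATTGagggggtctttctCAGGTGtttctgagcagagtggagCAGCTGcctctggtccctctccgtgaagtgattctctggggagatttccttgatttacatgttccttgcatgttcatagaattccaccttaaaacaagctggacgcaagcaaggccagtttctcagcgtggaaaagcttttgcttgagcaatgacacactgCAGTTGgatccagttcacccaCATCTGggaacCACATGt
Postn: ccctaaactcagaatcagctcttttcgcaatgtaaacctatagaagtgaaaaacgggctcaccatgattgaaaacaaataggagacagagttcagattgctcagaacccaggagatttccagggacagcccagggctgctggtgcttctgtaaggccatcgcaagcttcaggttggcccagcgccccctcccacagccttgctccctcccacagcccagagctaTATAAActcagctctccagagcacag
Bgn: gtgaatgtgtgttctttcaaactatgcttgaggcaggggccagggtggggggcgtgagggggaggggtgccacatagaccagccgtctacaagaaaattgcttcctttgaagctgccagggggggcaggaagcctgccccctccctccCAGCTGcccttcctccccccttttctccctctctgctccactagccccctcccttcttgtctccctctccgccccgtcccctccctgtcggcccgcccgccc
The TATA box of Postn begins at position -26 from the start, and those of Aspn at -207 and -178. Dpt holds 6 E-boxes in this window, the most downstream of which, at -7, overlaps a RUNX motif (TGTGGT), while Aspn and Bgn hold 1 each. The Aspn window has 30% G and C, Dpt 48.8%, Postn 52% and Bgn 64.4%, against a median of 52.4% over all 32851 windows.

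TATAAA was found anywhere in the window in 4 of the 8 genes with a window (Aspn, Postn, Ogn and Tnc), against 14.3% of 27025 genes. The match began at -26 in Postn, and further from the start in the others. Those were at -207 and -178 in Aspn, -229 and -227 in Ogn, and -126 and -205 from the starts of Tnc. An E-box was found in 6 of 8 (all but Postn and Tnn) against 69.3% of genes. Each other motif was found in at most 2 of the 8. The AP-1 motif TGANTCA was found in Lrrc15 alone (7.82% of genes), TEAD CATTCC in Ogn and Tnn (14.4%) and RUNX TGTGGT in Dpt and Ogn (15.9%). SMAD CAGAC was found in Postn and Tnc (45.8%) and ETS GGAAGT in Aspn (22.2%). Where a gene had several windows, a match in any of them counted. The SMAD match of Postn, at -191, lies in the window of its upstream start, which is not shown. Neither the FOX motif GTAAACA (3.54% of genes) nor the CArG box bound by SRF (1.62%) was found in any of the 8. No motif was shared by all 8 genes, and a match says only that these letters are present.

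**Figure D1:**
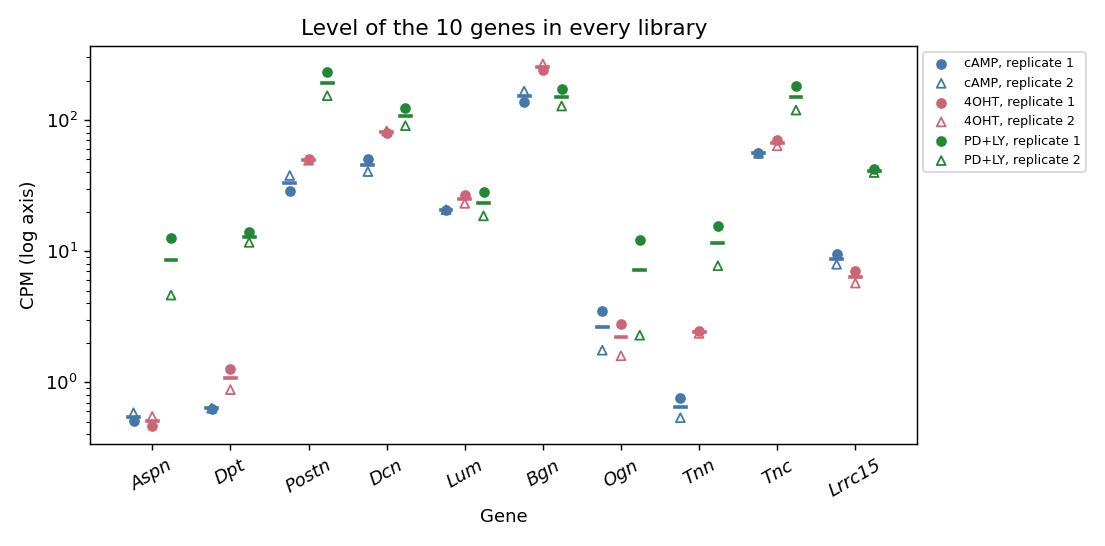
Level of each of the 10 genes in CPM (log axis) in the 6 libraries, with circles for replicate 1, triangles for replicate 2 and bars for the group mean. Aspn, Dpt, Postn, Dcn, Tnn, Tnc and Lrrc15 are higher in both PD+LY libraries than in all 4 others, whereas Lum, Bgn and Ogn are not.

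Among the SLRP genes, Aspn had few counts without inhibitors. Asporin is a periosteal and periodontal SLRP that binds collagen and TGF-beta. It was at 0.503 and 0.585 CPM in cAMP, 0.467 and 0.549 in 4OHT, and 12.6 and 4.62 in PD+LY, from 8, 12, 7, 10, 248 and 95 counts. Both PD+LY libraries lay above all others, and they differed from each other by 2.73-fold. The log2 fold change was 4.06 (SE 0.52, n = 2 libraries per group) in PD+LY versus 4OHT and 3.96 (SE 0.51) against cAMP, and without PD+LY replicate 1 the first of these was 3.16. Between 4OHT and cAMP the difference was -0.10 (SE 0.71, adjusted p = 0.951, edgeR quasi-likelihood test with Benjamini-Hochberg adjustment, used for all adjusted p values here). Aspn did not pass the filter with cAMP and 4OHT alone, so this difference was tested only in fits that held PD+LY libraries.

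Ogn, its neighbour on chromosome 13, encodes osteoglycin, a corneal and bone SLRP that can carry keratan sulphate. It was at 3.52 and 1.75 CPM in cAMP, 2.80 and 1.59 in 4OHT, and 12.1 and 2.29 in PD+LY. Only PD+LY replicate 1 stood above the other libraries, since replicate 2 lay within the range of each other group. The log2 fold change of 1.72 (SE 0.62) in PD+LY versus 4OHT became 0.07 without that library, and 1.46 (SE 0.60) against cAMP became -0.18. Its value in 4OHT versus cAMP was -0.26 (SE 0.67, adjusted p = 0.857). Of the genes between and around this pair, Omd, which encodes osteomodulin, had 0 counts in all 6 libraries, which allows at most 3 counts in each, and Ecm2 had 0 to 6. Cenpp, a centromere gene, had 288 and 303 counts in cAMP, 169 and 219 in 4OHT and 400 and 301 in PD+LY, highest in PD+LY replicate 1, and its log2 fold change in PD+LY versus 4OHT was 0.59 (adjusted p = 0.0448).

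Dcn and Bgn encode decorin and biglycan, close relatives that carry chondroitin or dermatan sulphate. Under the inhibitors Dcn lay above its 4OHT level and Bgn below it. Dcn was at 50.002 and 40.4 CPM in cAMP, 79.3 and 82.6 in 4OHT, and 123 and 90.6 in PD+LY. Its libraries did not overlap between groups, and its level was lowest in cAMP and highest in PD+LY. Its log2 fold change was 0.84 (SE 0.15, adjusted p = 0.0061) in 4OHT versus cAMP, and 0.40 (SE 0.15) in PD+LY versus 4OHT and 1.24 (SE 0.15) in PD+LY versus cAMP.

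Bgn was at 137 and 166 CPM in cAMP, 241 and 267 in 4OHT, and 173 and 128 in PD+LY. The 4OHT libraries lay above both other groups, which overlapped. Its log2 fold change was 0.75 (SE 0.14, adjusted p = 0.0079) in 4OHT versus cAMP, and it was -0.76 (SE 0.14) in PD+LY versus 4OHT, a level 1.69-fold lower, and -0.01 (SE 0.14) in PD+LY versus cAMP. Both 4OHT changes were under 2-fold, and both adjusted p values went above 0.05 when libraries were left out: that of Dcn was 0.0573 without 4OHT replicate 1 and 0.062 without 4OHT replicate 2, and that of Bgn was 0.0564 without cAMP replicate 1, 0.0517 without 4OHT replicate 1 and 0.0887 without 4OHT replicate 2.

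Lum, the neighbour of Dcn, encodes lumican, a keratan sulphate SLRP that is abundant in the cornea. It was at 20.6 and 20.7 CPM in cAMP, 26.8 and 23.1 in 4OHT, and 28.1 and 18.6 in PD+LY. The PD+LY libraries enclosed the values of both other groups. Its log2 fold change was 0.27 (SE 0.18, adjusted p = 0.404) in 4OHT versus cAMP, -0.10 (SE 0.18) in PD+LY versus 4OHT and 0.18 (SE 0.18) in PD+LY versus cAMP. The next genes of this cluster were almost silent, with Kera at 0 to 2 counts and Epyc at 0 to 4 counts per library.

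Dpt, Tnn and Aspn had the 3 highest fitted folds in PD+LY versus cAMP, in an order that changed when libraries were left out. Dermatopontin binds decorin and promotes collagen fibril assembly. It was at 0.629 and 0.634 CPM in cAMP, 1.27 and 0.878 in 4OHT, and 13.9 and 11.7 in PD+LY, from 10, 13, 19, 16, 273 and 240 counts. The PD+LY libraries were close to each other and above the 4 others. The log2 fold change was 3.58 (SE 0.28) in PD+LY versus 4OHT and 4.32 (SE 0.30) in PD+LY versus cAMP. The value in 4OHT versus cAMP was 0.74 (SE 0.39, adjusted p = 0.271).

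Among the matricellular genes, Postn was lowest in cAMP and highest in PD+LY. Periostin is a fasciclin-domain protein that binds integrins and collagen. It was at 28.6 and 37.8 CPM in cAMP, 50.2 and 49.3 in 4OHT, and 231 and 153 in PD+LY. The 3 groups did not overlap. Its log2 fold change was 1.95 (SE 0.18) in PD+LY versus 4OHT and 2.53 (SE 0.18) in PD+LY versus cAMP. In 4OHT versus cAMP it was 0.58 (SE 0.18, adjusted p = 0.0731), and other settings put that p below 0.05: 0.0198 with DESeq2, 0.0114 with only the 2 groups compared and 7.5e-05 with no filter on low counts. With a library left out it ran from 0.00742 (without PD+LY replicate 2) to 0.37 (without cAMP replicate 1), and was 0.286 without 4OHT replicate 1 and 0.254 without 4OHT replicate 2.

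The tenascins are large oligomeric glycoproteins that modulate cell adhesion. Tnc was at 55.6 and 55.7 CPM in cAMP, 70.8 and 63.5 in 4OHT, and 182 and 119 in PD+LY. Its log2 fold change was 1.16 (SE 0.16) in PD+LY versus 4OHT and 1.44 (SE 0.16) in PD+LY versus cAMP, and without PD+LY replicate 1 the former was 0.83, under 2-fold. The change in 4OHT versus cAMP was 0.27 (SE 0.16, adjusted p = 0.346). Tnn, or tenascin-W, is known from developing bone and tumour stroma. It was at 0.755 and 0.536 CPM in cAMP, 2.47 and 2.36 in 4OHT, and 15.5 and 7.73 in PD+LY, from 12, 11, 37, 43, 304 and 159 counts. Tnn was the only one of the 10 genes that was at least 2-fold higher in both steps, with a log2 fold change of 1.91 (SE 0.46) in 4OHT versus cAMP and 2.26 (SE 0.34) in PD+LY versus 4OHT. Its value in PD+LY versus cAMP was 4.18 (SE 0.40).

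Lrrc15 encodes a leucine-rich repeat membrane protein known as a marker of activated fibroblasts around tumours. It was at 9.56 and 7.94 CPM in cAMP, 7.01 and 5.70 in 4OHT, and 42.2 and 39.8 in PD+LY. The PD+LY libraries differed by 1.06-fold, less than for the other 9 genes, and lay above the 4 others. Its log2 fold change was 2.69 (SE 0.17) in PD+LY versus 4OHT and 2.23 (SE 0.16) in PD+LY versus cAMP. Its change in 4OHT versus cAMP was -0.46 (SE 0.18, adjusted p = 0.136).

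**Figure D2:**
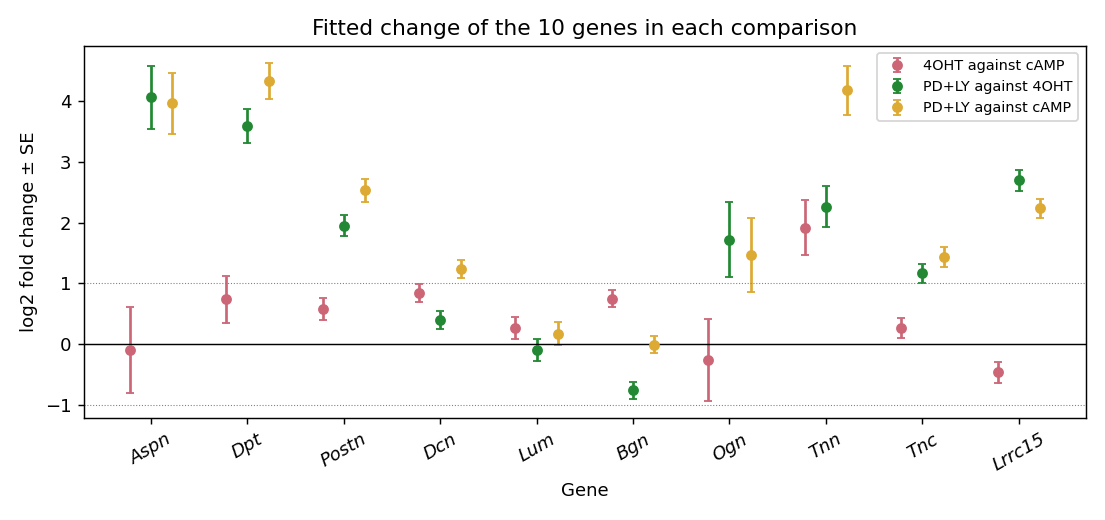
Fitted log2 fold change with its standard error for each of the 10 genes in the 3 comparisons (2 libraries per group), with dotted lines at a 2-fold change. Aspn, Dpt and Tnn reach about 4 in PD+LY versus cAMP, Lum stays near 0 in all 3 comparisons, and Bgn is positive in 4OHT versus cAMP and negative in PD+LY versus 4OHT.

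A gene was called differentially expressed (DEG) at an adjusted p under 0.05 and a change of at least 2-fold. For some lists the number of genes at an unadjusted p under 0.05 is also given. The share of all tested genes at that threshold was not counted, so those numbers have no background. In 4OHT versus cAMP, 1 of the 10 genes was a DEG (Tnn, higher), against 2.67% of all tested genes in either direction and 1.17% higher, and 3 (Tnn, Dcn and Bgn) passed the adjusted p alone, against 8.39%. The study lists Tnn for this comparison, so its p value is not given here. Tnn was no DEG without cAMP replicate 2, without 4OHT replicate 1 or without 4OHT replicate 2. In PD+LY versus 4OHT, 6 of the 10 were DEGs, all higher (Aspn, Dpt, Lrrc15, Tnn, Postn and Tnc), where 7.26% of all tested genes were DEGs, 2.35% higher and 4.9% lower. In PD+LY versus cAMP, 7 were DEGs, these 6 and Dcn, where 9.24% of all tested genes were DEGs, 3% higher and 6.24% lower. Both comparisons with PD+LY use the same PD+LY libraries and were used to choose the genes, so these counts describe the choice. They also use the 4OHT and cAMP libraries, so the values in 4OHT versus cAMP are not independent of the choice. In terms of libraries that did not overlap between groups, 7 of the 10 genes were higher and 1 (Lrrc15) lower in 4OHT than in cAMP, where 29.1% of all tested genes were higher and 29.4% lower by that measure. For PD+LY and 4OHT these counts were 7 higher and 1 lower (Bgn), against 31.1% and 31.2% of tested genes, and for PD+LY and cAMP 7 higher and 0 lower, against 30.2% and 31.2%. The median log2 fold change of the 10 genes was 0.43 in 4OHT versus cAMP, 1.84 in PD+LY versus 4OHT and 1.85 in PD+LY versus cAMP, and the median over all tested genes was within 0.01 of 0 in each.

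**Figure D3:**
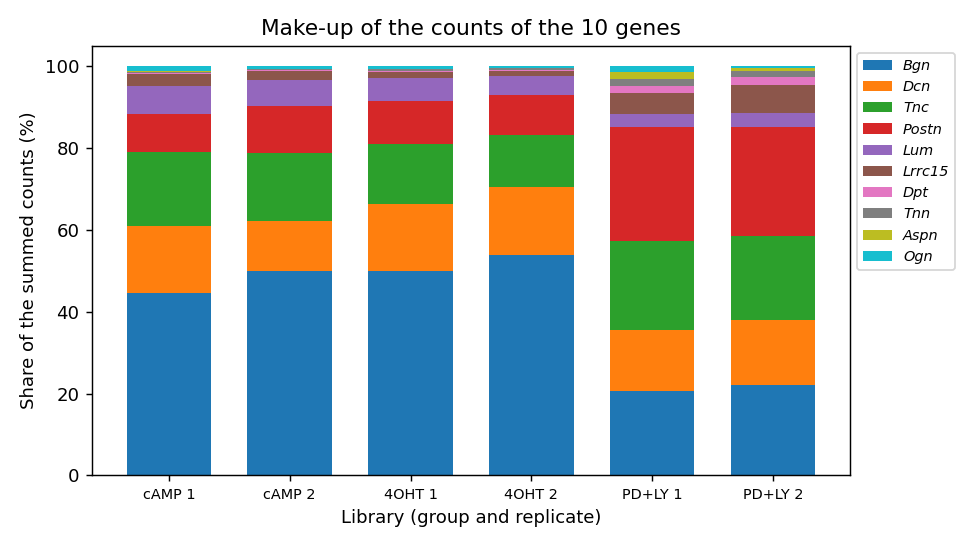
Share (%) of the summed counts of the 10 genes taken by each gene in each library. Bgn takes 44.6 to 53.8% in the 4 libraries without inhibitors and 20.7 and 22.2% in PD+LY, where Postn takes the largest share; counts are not divided by gene length.

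The sum of the 10 transcripts and its make-up, as shares of counts not divided by gene length, both differed between the groups. The summed level of the 10 genes was 306 and 332 CPM in cAMP, 482 and 497 in 4OHT, and 833 and 575 in PD+LY. Bgn took 44.6 and 50.01% of their counts in cAMP, 50.02 and 53.8% in 4OHT, and 20.7 and 22.2% in PD+LY. Postn took 9.32 and 11.4% in cAMP, 10.4 and 9.92% in 4OHT, and 27.7 and 26.6% in PD+LY. The share of Tnc was 18.2 and 16.8% in cAMP, 14.7 and 12.8% in 4OHT, and 21.8 and 20.7% in PD+LY. The share of Dcn was between 12.2 and 16.6% in all 6 libraries. In PD+LY the shares of the abundant genes were close between the 2 replicates although the summed level was not.

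Per kilobase of exon, the order of the levels changed under the inhibitors. In cAMP, Bgn was highest at 24.8 CPM per kb, above Lum (8.43), Dcn (7.75) and Tnc (7.16), whose libraries overlapped in this order, then Postn (3.81), Lrrc15 (1.65), Ogn (1.03), Dpt (0.366), Aspn (0.231) and Tnn (0.111). In 4OHT, Bgn was again highest at 41.7, followed by Dcn (13.9), Lum (10.2), Tnc (8.64) and Postn (5.72), with Aspn lowest at 0.216. In PD+LY, Bgn (24.6), Postn (22.1), Tnc (19.4) and Dcn (18.3) overlapped between libraries. Lum (9.53), Lrrc15 (7.72) and Dpt (7.42) formed the next overlapping group, and Aspn (3.66), Ogn (2.80) and Tnn (2.00) the lowest.

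**Figure D4:**
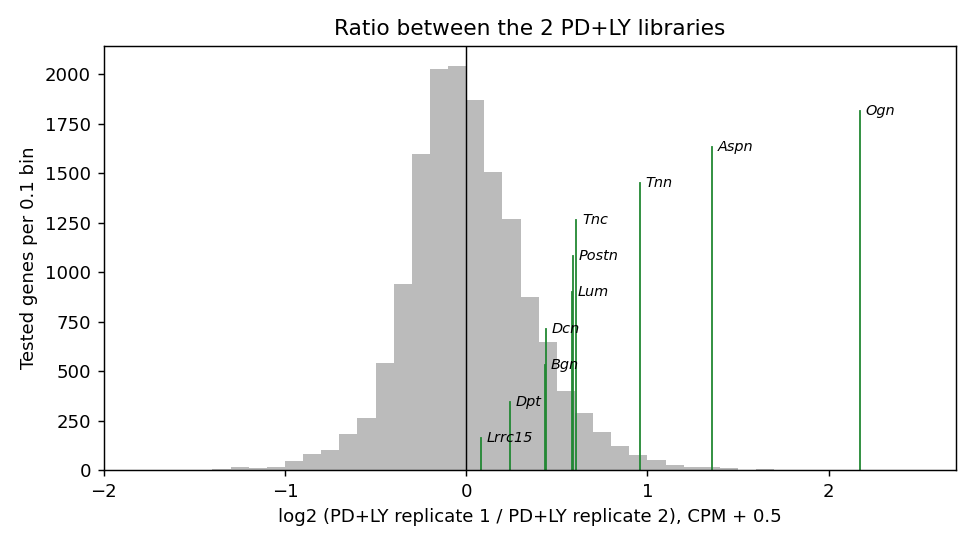
Log2 ratio of PD+LY replicate 1 to PD+LY replicate 2 (CPM + 0.5) over all tested genes, as a histogram in bins of 0.1, with the 10 genes as green lines whose heights only separate the names. All 10 lines lie to the right of 0, from Lrrc15 at 0.08 to Ogn at 2.17.

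All 10 genes were higher in PD+LY replicate 1 than in replicate 2. The median log2 ratio was 0.59, with a range from 0.08 (Lrrc15) to 2.17 (Ogn), while the median over all tested genes was -0.01. Of all tested genes, 5.62% had a ratio above the median of the 10. In cAMP 4 of the 10, and in 4OHT 7 of the 10, were higher in replicate 1. Other lists were also higher in PD+LY replicate 1, with 12 of 12 fibroblast markers, 8 of 8 thyroid markers and 20 of 22 fibrillar collagen and fibril genes, whereas 2 of 7 pluripotency markers and 3 of 7 epithelial markers were. The part of these differences between the libraries in the levels of the 10 genes was not tested. Without replicate 1 the log2 fold changes of Lrrc15 and Dpt in PD+LY versus 4OHT were 2.65 and 3.45, and over all left-out libraries that of Dpt ran from 3.33 (without 4OHT replicate 2) to 3.86 (without 4OHT replicate 1). Those of Postn and Tnn became 1.62 and 1.68, and those of Dcn, Lum and Bgn became 0.16, -0.42 and -0.99. In PD+LY versus cAMP without replicate 1, Lum and Bgn were at -0.15 and -0.24, and the other genes apart from Ogn were positive, the lowest being Dcn at 1.01.

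The 5 other genes whose log2 CPM over the 6 libraries was most like the mean of the 10 genes, among 12214 genes that averaged at least 50 counts, were Dpy30 (Pearson r 0.998), Ppp1r21 (0.997), Mdfic (0.995), Atp8a1 (0.994) and Socs6 (0.993). The measure compares shape and not size, and the 6 points share groups and libraries. The 10 genes did not share 1 profile. With the mean of the other 9, Bgn correlated at -0.27, Lum at 0.33 and Ogn at 0.69, and the rest at 0.84 (Dcn) to 0.999 (Tnc). In PD+LY versus 4OHT the log2 fold change was 1.16 for Mdfic and 0.78 for Atp8a1, but 0.18 for Dpy30, 0.15 for Ppp1r21 and 0.34 for Socs6.

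**Figure D5:**
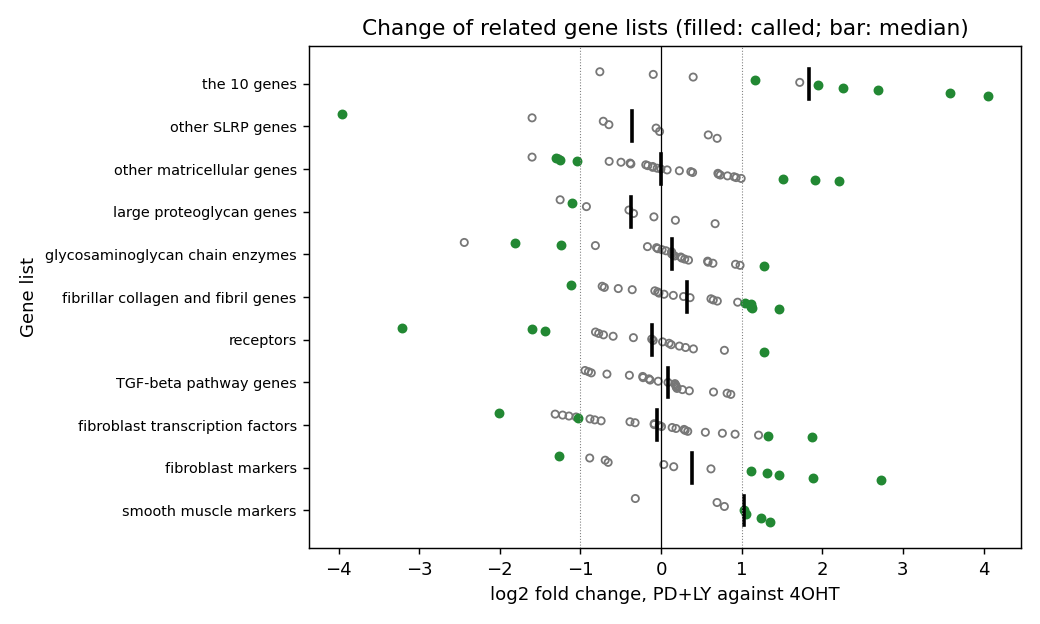
Log2 fold change in PD+LY versus 4OHT of each tested gene in the 10 related lists and of the 10 genes, with filled points for DEGs and a bar at each median. The medians of the other SLRP, other matricellular and TGF-beta lists lie between -0.35 and 0.09, and that of the smooth muscle markers at 1.02.

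In PD+LY versus 4OHT, 1 of 8 other SLRP genes (12.5%) and 6 of 29 other matricellular genes (20.7%) were DEGs, against 7.26% of all tested genes. Of 13 other SLRP genes 8 were tested, and in PD+LY versus 4OHT 0 were higher DEGs with edgeR and with DESeq2 (2 were higher at an unadjusted p under 0.05) and 1 was lower, with a median log2 fold change of -0.35 against 0.01 over all tested genes. The lower gene was Optc, which encodes opticin, an SLRP of the vitreous of the eye. It was at 24.5 and 26.5 CPM in cAMP, 21.5 and 18.2 in 4OHT, and 0.968 and 1.56 in PD+LY, and fell by 3.96 on the log2 scale (SE 0.23, adjusted p = 1.41e-06) against 4OHT. Between 4OHT and cAMP 0 of the 8 were DEGs with edgeR and with DESeq2, and 2 had an unadjusted p under 0.05.

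Of 29 other matricellular genes tested, in PD+LY versus 4OHT 3 were higher and 3 were lower DEGs, and the median was -0.002. Smoc2 (2.21, SE 0.28, adjusted p = 0.000244), a calcium-binding relative of Sparc, Fstl1 (1.51, SE 0.15, adjusted p = 4.57e-05), a secreted follistatin-like glycoprotein, and Vtn (1.91, SE 0.48, adjusted p = 0.0142), which encodes vitronectin, rose. Spock2 (-1.31, adjusted p = 4.53e-05), Sparcl1 (-1.25, adjusted p = 0.000259) and Ccn1 (-1.04, adjusted p = 0.000563) fell. In 4OHT versus cAMP 2 of the 29 were DEGs (6.9%, against 2.67% of all tested genes). The osteopontin gene Spp1 rose by 1.04 (SE 0.10, adjusted p = 0.000116) and Smoc2 fell by 1.20 (SE 0.29, adjusted p = 0.0236). Smoc2 thus moved in opposite directions in the 2 comparisons, which share the 4OHT libraries. Its levels were 6.35 and 5.85 CPM in cAMP, 1.73 and 3.46 in 4OHT, and 13.0 and 11.5 in PD+LY.

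Of 24 enzymes that build the sugar chains of SLRPs, 3 were DEGs in PD+LY versus 4OHT (12.5%, against 7.26% of all tested genes). Chst1, a keratan sulphate sulphotransferase, fell by 1.81 on the log2 scale (SE 0.20, adjusted p = 0.000122), Xylt1, which starts the chains, fell by 1.24 (SE 0.27, adjusted p = 0.00742), and B3galt6, which extends the linker, rose by 1.27 (SE 0.34, adjusted p = 0.0186). Of 8 large proteoglycan and link protein genes 1 was a DEG (12.5%): Ncan, which encodes neurocan, fell by 1.10 (SE 0.30, adjusted p = 0.0207). Between 4OHT and cAMP 0 genes of either list were DEGs with edgeR and with DESeq2, and 4 enzymes and 3 large proteoglycan genes had an unadjusted p under 0.05.

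Collagens and fibril proteins include the partners that SLRPs and dermatopontin bind. Of 22 genes, in PD+LY versus 4OHT 6 rose and 1 fell (31.8% called, against 7.26% of all tested genes), with a median of 0.32. Col3a1 rose by 1.46 (SE 0.09, adjusted p = 2.92e-06), with 450 and 523 CPM in 4OHT and 1388 and 1286 in PD+LY. Lox, a collagen cross-linking enzyme, rose by 1.12 (SE 0.21, adjusted p = 0.00294), and Col5a1 and Col1a2 by 1.11 each (SE 0.11 each). The PD+LY libraries differed for Lox, which was at 91.9 and 84.1 CPM in 4OHT and 248 and 134 in PD+LY. The minor chain Col5a3 followed the pattern of Bgn: it rose by 1.09 (SE 0.15, adjusted p = 0.00139) in 4OHT versus cAMP and fell by 1.12 (SE 0.15, adjusted p = 0.000397) in PD+LY versus 4OHT. Both changes use the 4OHT libraries. In 4OHT versus cAMP 3 genes of the list rose and 0 fell (13.6% called, against 2.67% of all tested genes). Beside Col5a3 these were Col1a1 (1.18, adjusted p = 9.58e-05) and Col5a2 (1.01, adjusted p = 0.00045).

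Of 18 receptor genes for these proteins, 1 rose and 3 fell in PD+LY versus 4OHT (22.2% called), with a median of -0.11. Over all tested genes 2.35% were higher and 4.9% lower DEGs. Tlr2, a receptor for biglycan, rose by 1.28 (SE 0.18, adjusted p = 0.000547). Itga2, a collagen-binding integrin chain, rose by 2.22 (SE 0.46, adjusted p = 0.0133) in 4OHT versus cAMP. It was the only receptor DEG there (5.56%, against 2.67% of all tested genes). It fell by 3.21 (SE 0.50, adjusted p = 0.000937) in PD+LY versus 4OHT, and both changes use the 4OHT libraries. Its counts were 35 and 20 in cAMP, 105 and 136 in 4OHT, and 25 and 6 in PD+LY. In PD+LY versus 4OHT Cd44 fell by 1.60 (SE 0.17, adjusted p = 9.19e-05) and Egfr, which decorin can bind, by 1.43 (SE 0.20, adjusted p = 0.000481). Of 21 TGF-beta pathway genes, 0 were DEGs with edgeR and with DESeq2 in 4OHT versus cAMP and in PD+LY versus 4OHT. Among all tested genes 2.67% and 7.26% were DEGs with edgeR. In each comparison 10 of the 21 had an unadjusted p under 0.05, and the medians were 0.04 and 0.09.

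The summed level of the fibroblast markers was higher in PD+LY through 3 collagen chains, while the other 9 markers together were lowest there. Of 12 fibroblast markers, Col1a1, Col1a2 and Col3a1 are also in the collagen list. In PD+LY versus 4OHT 5 rose (Cd248, Pi16, Col3a1, Mfap5 and Col1a2) and 1 fell (Pdgfrb), 50% against 7.26% of all tested genes. Of the 12 changes 8 were positive and 4 negative, with a median of 0.39. Cd248, the gene of endosialin, rose by 2.73 (SE 0.26, adjusted p = 4.46e-05), and Pi16 by 1.88 (SE 0.34, adjusted p = 0.00255). Of the PDGF receptor genes, Pdgfrb fell by 1.26 (SE 0.16, adjusted p = 0.000281), while Pdgfra was at 125 and 147 CPM in 4OHT and 166 and 112 in PD+LY (0.03, SE 0.16, adjusted p = 0.9). Of 7 smooth muscle markers, 4 rose (57.1%; Cnn1, Myh11, Des and Lmod1, by 1.02 to 1.36), and their summed level was 276 to 353 CPM in cAMP, 370 to 383 in 4OHT and 520 to 643 in PD+LY. The part of these marker genes in the levels of the 10 genes was not tested, and in bulk RNA fewer cells of a type and less RNA per cell cannot be told apart. Of 7 cartilage and bone markers tested, 0 were higher DEGs in PD+LY versus 4OHT with edgeR and with DESeq2, 1 was higher at an unadjusted p under 0.05, and Col9a1 was lower (-2.14). Their summed level was 443 to 461 CPM in cAMP, 551 to 594 in 4OHT and 558 to 650 in PD+LY, and Bglap, a defining gene of osteoblasts, was at 0 counts in every library.

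Of 26 transcription factors known from mesenchyme, 2 rose (Heyl and Lmx1b) and 2 fell (Tcf21 and Twist1) in PD+LY versus 4OHT (15.4%, against 7.26% of all tested genes), with a median of -0.05. With DESeq2 Lmx1b and Tcf21 alone were called. Lmx1b was at 7.55 and 7.85 CPM in cAMP, 26.2 and 26.001 in 4OHT, and 55.2 and 75.3 in PD+LY. It rose at both steps, by 1.76 (SE 0.17, adjusted p = 0.000119) in 4OHT versus cAMP and by 1.32 (SE 0.15, adjusted p = 0.000151) in PD+LY versus 4OHT. Twist1, by contrast, fell by 1.03 (SE 0.33, adjusted p = 0.0439) in PD+LY versus 4OHT.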

How the data were processed

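Bulk RNA of 6 organoid libraries, 2 per group, was sequenced paired-end from a TruSeq stranded mRNA kit. The authors trimmed reads with Trimmomatic, aligned them to mm10 with HISAT2 on Galaxy and counted them per gene symbol with HTSeq without using strand; the deposited values are raw counts, and the versions of the aligner and counter and the annotation are not given in the sources used here. Of 25239 genes, 5586 had no count. Genes were filtered with filterByExpr (minimum count 10, total 15), scaled by TMM and fitted in edgeR 4.0.16 (R 4.3.3) as 1 quasi-likelihood model of all 6 libraries. Adjusted p values (Benjamini-Hochberg) run over all 15256 tested genes. The floor was 3 counts, covering counting error only. Alternatives were DESeq2 1.42.0, RLE size factors, no filter, 2 groups alone, a replicate block, no fold threshold and leaving out each library. The labels name no batch.

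The 10 genes and all gene lists were chosen with earlier results of these data known. Named were the 10 genes, their cluster neighbours, up to 4 DEGs per list, direction and comparison with a mean of at least 50 counts, counts of 5 genes or fewer, defining cell type markers and the 5 most similar genes; DEGs under 50 mean counts (Vtn, B3galt6 and Heyl among them) were named after their values were seen. Positions and exon lengths came from GENCODE M21 (24321 symbols matched once), and promoter windows from RefSeq.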

Additional observations from a re-analysis of the deposited data

How the results depend on the processing

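Of 329 recomputed log2 fold changes of the 10 genes, 319 had the same sign as the value reported, and 10, each with a library left out, did not. The number of DEGs was 408 in 4OHT versus cAMP, 1107 in PD+LY versus 4OHT and 1409 in PD+LY versus cAMP, ranged from 164 to 487, 632 to 1176 and 1118 to 1391 when each library was left out in turn, and was 1280, 3469 and 3925 with no fold threshold. The fewest were found without 4OHT replicate 1 (164) and without 4OHT replicate 2 (632). Of the 10 genes, 0 to 1 was called in 4OHT versus cAMP when a library was left out and 3 with no fold threshold, and 5 to 7 and 7 to 8 in the comparisons of PD+LY with 4OHT and cAMP; in PD+LY versus 4OHT, Tnc was lost without PD+LY replicate 1, and Ogn was gained without cAMP replicate 1, cAMP replicate 2 or PD+LY replicate 2, with only the 2 groups compared and with no filter. The 10 changes of sign belong to differences that were not called. In 4OHT versus cAMP, Aspn ranged from -0.22 to 0.027 (0.027 without cAMP replicate 2 and 0.01 without 4OHT replicate 1) and Ogn from -0.70 to 0.30 (0.30 without cAMP replicate 1 and 0.11 without 4OHT replicate 2). Lum in PD+LY versus 4OHT was -0.10 and became 0.01 without 4OHT replicate 1 and 0.17 without PD+LY replicate 2. In PD+LY versus cAMP without PD+LY replicate 1, Lum became -0.15 and Ogn -0.18, and Bgn, at -0.01, became 0.15 without cAMP replicate 2 and 0.19 without PD+LY replicate 2. With DESeq2 the mesenchymal transcription factors called were 1 instead of 2 in 4OHT versus cAMP (Foxc2 lost) and 2 instead of 4 in PD+LY versus 4OHT (Heyl and Twist1 lost), and the large proteoglycan genes 1 instead of 2 in PD+LY versus cAMP; the cause was not tested. The labels name no shared source for same-numbered libraries, so replicate number was not used as a pair in the main fit. The deviations of same-numbered libraries correlated at 0.07, 0.06 and 0.21. Such weak positive values cannot show whether the libraries were paired. A replicate block gave 513, 1222 and 1481 DEGs and called 1, 7 and 8 of the 10 genes, with Ogn gained in both comparisons with PD+LY; the adjusted p of Postn in 4OHT versus cAMP was then 0.0183. Counts of 7 to 19 for Aspn, Dpt and Tnn in some libraries limit the precision of their folds.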
